A study of Mus musculus with 8 samples.

Results

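The miR-143/miR-145 cluster was examined in the kidneys of diabetic mice through its 4 mature arms, mmu-miR-143-3p, mmu-miR-143-5p, mmu-miR-145a-5p and mmu-miR-145a-3p, which were found by name among the 1881 mouse miRNAs on the array. The study compared kidney miRNAs of db/db males with those of control males, all aged 28 weeks, on 8 single-colour Agilent arrays, 4 per group. By their labels the diabetic mice were C57BLKS/J Iar -+Leprdb/+Leprdb, homozygous for the db allele of the leptin receptor gene Lepr, a model that lacks the working receptor in the whole body and is known to become obese and diabetic. The controls were C57BLKS/J Iar -m+/m+, so both groups share the C57BLKS/J background. The titles call the controls dbm and the source labels call them m/m, and it could not be settled whether they carried a db allele. No other treatment is given in the labels. Nothing in the labels ties each sample to an animal of its own, so the p-values describe only how these samples vary, which may be partly technical.

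miR-143 and miR-145 are cut from neighbouring hairpins that are made together and are known as miRNAs of smooth muscle and pericytes. Serum response factor and its partner myocardin drive the cluster, and its miRNAs in turn repress KLF4, KLF5 and ELK1, factors that move smooth muscle away from its contractile state. In the kidney such cells lie in the walls of arteries and arterioles, around peritubular capillaries and, as mesangial cells, between the glomerular capillaries. miR-143-3p and miR-145a-5p are the guide arms, which are loaded into the silencing complex, and the other arms are the passenger arms.

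All 4 arms lie on chromosome 18. In the mm9 coordinates of the scanner files, the probes of miR-145a-5p match chr18:61807494-61807507 and those of miR-145a-3p match chr18:61807526-61807546. The probes of miR-143-5p match chr18:61808862-61808875 and those of miR-143-3p match chr18:61808895-61808909. A stretch of 1315 bases lies between the mapped bases of the miR-145a hairpin and those of the miR-143 hairpin. In RefSeq's gene table of GRCm38.p6, the long non-coding RNA gene Carmn spans both Mir143 and Mir145a and no other miRNA gene. Whether the hairpins lie in its exons or introns was not analysed here.

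Both guide arms were measured on all 8 arrays and neither differed between the groups beyond the spread of the arrays. The level in db/db kidneys over that in control kidneys was 0.970 for miR-143-3p and 0.956 for miR-145a-5p. Both passenger arms were undetected on all 8 arrays. Many other miRNAs differed between the groups, whose arrays also lay in different rows of the slide. Of 316 tested miRNAs, 132 passed the threshold (34 when the arrays were scaled to the 75th percentile over all miRNAs). Listed miRNAs of stroma and leukocytes fell on the same arrays.

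The values below are the scanner's processed spot signal, averaged over the spots and probes of a miRNA and scaled so that every array has the same 75th percentile among the 269 miRNAs that were detected everywhere. miR-143-3p had, from control replicate 1 to 4, a scaled signal of 438, 419, 385 and 432. The db/db replicates 1 to 4 gave 432, 417, 385 and 390. Control replicate 3 and db/db replicates 3 and 4 were the low arrays, and the groups overlapped over nearly their whole range. On the log2 scale the control mean was 8.71 ± 0.08 and the db/db mean 8.66 ± 0.08 (SD, n = 4 arrays each). The change was -0.04 with a standard error of 0.060 and a 95% interval of -0.18 to 0.09 (limma, Benjamini-Hochberg adjusted p = 0.564 over all tested miRNAs). As a percent change from the control level, that interval runs from -11.8 to 6.71.

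miR-145a-5p had a scaled signal of 81.5, 69.2, 67.6 and 72.4 on the control arrays, in order of replicate. The db/db arrays gave 76.3, 69.3, 67.1 and 65.0. The highest array was a control and the lowest a db/db array, with the other arrays mixed between them. The log2 mean was 6.18 ± 0.12 over the control and 6.11 ± 0.10 over the db/db arrays (SD, n = 4 arrays each). The change was -0.06 with a standard error of 0.075 and a 95% interval of -0.24 to 0.11 (limma, adjusted p = 0.496). As a percent change it runs from -15.2 to 7.81.

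**Figure D1:**
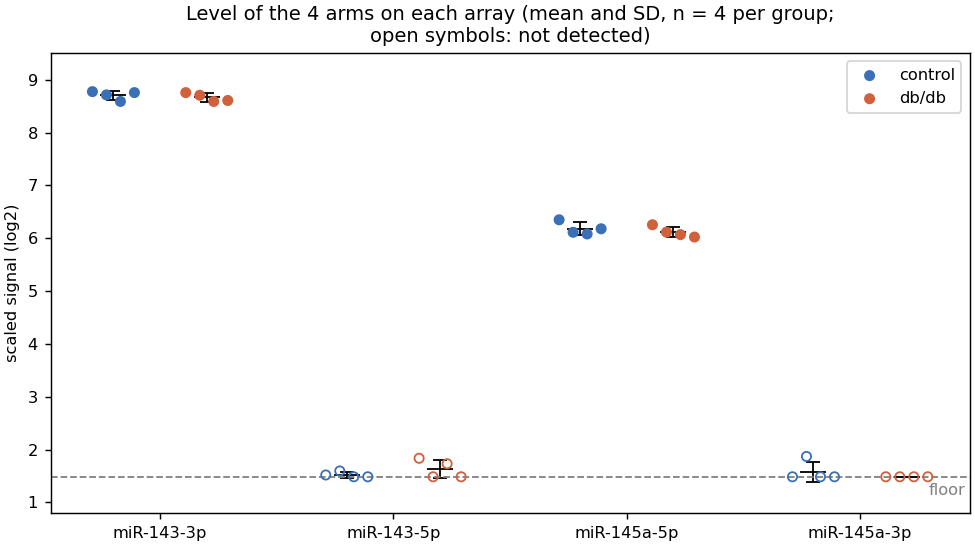
Each point is 1 array and gives the log2 scaled signal of 1 arm, with control in blue, db/db in orange, bars for the mean and SD of 4 arrays, open symbols for arms not detected and a dashed line at the floor of 1.48. The guide arms stand at 8.59 to 8.77 (miR-143-3p) and 6.02 to 6.35 (miR-145a-5p) in overlapping groups, and the passenger arms lie at or near the floor.

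Both guide arms were thus among the miRNAs that did not pass. Of the 316 tested miRNAs, 132 passed an adjusted p of 0.05 (41.8%), 77 of them higher in db/db kidneys (24.4%) and 55 lower (17.4%). Groups that did not overlap were found for 131 (41.5%). None of the 2 tested arms passed in the limma fit across all tested miRNAs, where the unadjusted values were 0.483 for miR-143-3p and 0.413 for miR-145a-5p, and the groups overlapped for both. The share of called miRNAs that were higher was 58.3%, and it moved to 78.1% without scaling, 78.1% with scaling to the labelling spike-ins, 69.3% with the 90th percentile and 46.9% with quantile normalization. It was 40.9% when the brightest probe stood for each miRNA, and without db/db replicate 2 there were 69 higher and 84 lower. With the 75th percentile over all miRNAs, 34 were called. The median change over all tested miRNAs was -0.02, so relative to it miR-143-3p changed by -0.02 and miR-145a-5p by -0.04. A change larger in size than that of miR-143-3p was seen in 278 of the tested miRNAs, and one larger than that of miR-145a-5p in 258.

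The guide arms were measured about as precisely as the other tested miRNAs. The standard errors of 0.060 and 0.075 stood beside a median of 0.077 over all tested miRNAs. Among the 132 called miRNAs, 85 had a standard error at or above that of miR-143-3p and 70 at or above that of miR-145a-5p. The smallest called change was 0.13 in size and the median called change 0.41. The spread within groups, pooled over both, was 0.082 for miR-143-3p and 0.111 for miR-145a-5p, with 110 and 152 tested miRNAs below them and a median of 0.114.

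The direction of the small changes rested on the scaling. Without any scaling the change of miR-143-3p was 0.08 and that of miR-145a-5p 0.06, and with the labelling spike-ins they were 0.07 and 0.05. Without scaling the median of all tested miRNAs was itself 0.10 rather than -0.02, and relative to that median the guide arms again stood at -0.02 and -0.04. Neither arm passed under any of the 26 alternatives. The adjusted p ranged from 0.0827 to 0.979 for miR-143-3p and from 0.118 to 0.979 for miR-145a-5p.

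miR-143-3p also helps to set the scale. It ranked 202 to 207 among the 269 miRNAs in order of signal on each array, and on 2 of the 8 arrays, control replicate 3 and db/db replicate 3, it was itself the 75th percentile. Its scaled signal is therefore the same on those arrays by construction. When the percentile was taken without the cluster's arms, a choice made after seeing this, the change was -0.06 for miR-143-3p (adjusted p = 0.475) and -0.08 for miR-145a-5p (adjusted p = 0.411). With the 90th percentile the changes were 0.0077 and -0.01, and with the 50th -0.07 and -0.09.

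**Figure D2:**
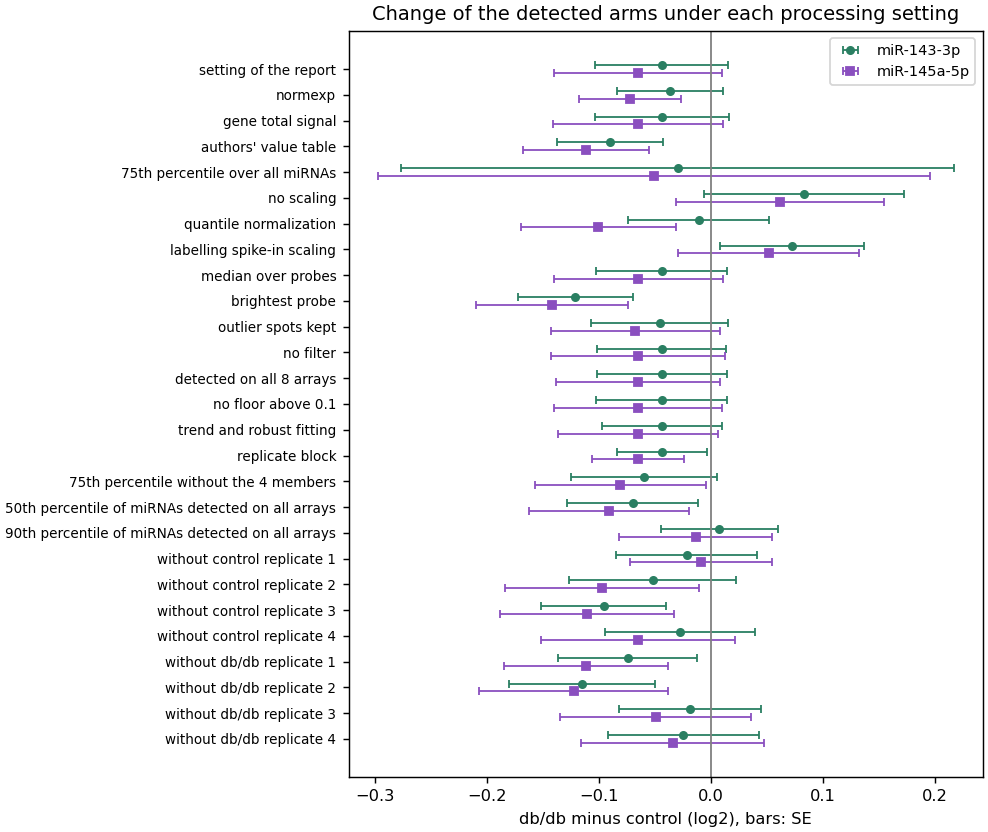
Points give the change from control to db/db kidneys on the log2 scale under the setting of the report and the 26 alternatives, with standard errors as bars, circles for miR-143-3p and squares for miR-145a-5p. The values run from -0.12 to 0.08 for miR-143-3p and from -0.14 to 0.06 for miR-145a-5p, on both sides of 0.

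Each guide arm was read by 2 probes of different length, with 15 spots each per array. The log2 change of miR-143-3p was -0.03 by the probe with 15 bases and -0.05 by that with 16 (exact permutation tests, 2-sided, p = 0.657 and p = 0.286). For miR-145a-5p it was -0.05 by the probe with 13 bases and -0.07 by that with 14 (exact permutation tests, 2-sided, p = 0.543 and p = 0.457). Adjusted over the 4 probes every p was 0.657. The probes of an arm thus gave like changes, and all 4 changes turned positive without scaling, between 0.05 and 0.10.

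The spots of a probe varied less than the arrays did. All 120 spots of each of these probes were well above background and none was saturated. The median coefficient of variation among the spots of an array was 3.99% and 4.60% for the probes of miR-143-3p and 8.82% and 6.67% for those of miR-145a-5p. These leave a standard error of 0.015 to 0.033 on the log2 mean of 1 array, below the standard deviation between arrays of 0.08 to 0.14. Spots of 1 array share their RNA and are not replicates.

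**Figure D3:**
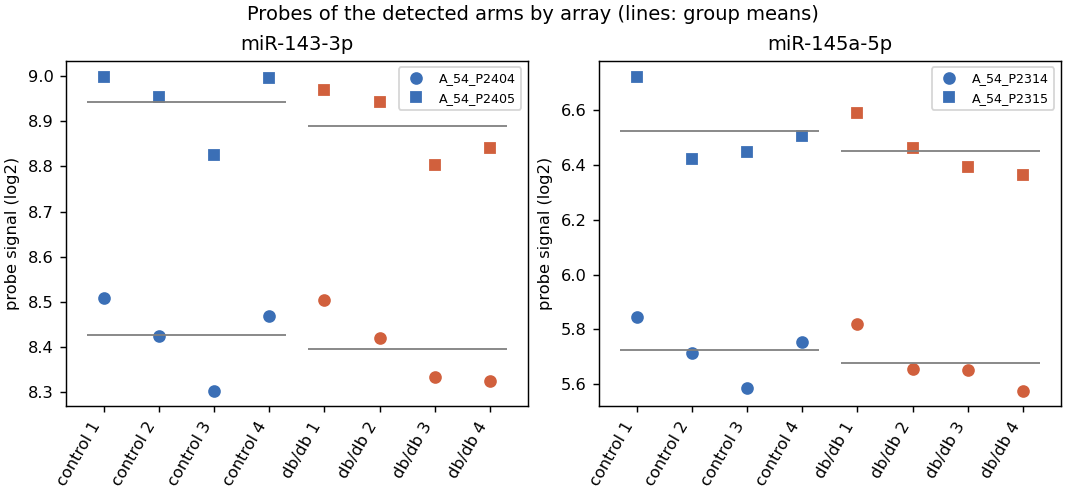
Each point is the log2 signal of 1 probe on 1 array, for the probes of miR-143-3p (left) and miR-145a-5p (right), with control in blue, db/db in orange, circles and squares for the different probes and grey lines at the group means. Replicate 1 is the highest array of its group for every probe, and for each probe the group means differ in size by 0.03 to 0.07, less than the spread of the points.

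The passenger arms gave no signal that could be told from background. miR-143-5p had scaled signals of 2.86, 3.02, 2.48 and 2.72 on the control arrays and 3.57, 2.64, 3.32 and 0.85 on the db/db arrays, in order of replicate. Signals were raised to a floor of 2.80, the median over the 8 arrays of the dimmest detected signal on each, and this arm was at the floor on 2 arrays of each group. miR-145a-3p had scaled signals of 1.01, 3.65, 0.51 and 0.62 on the control arrays and 2.11, 2.03, 0.67 and 0.84 on the db/db arrays. It was at the floor on 3 control arrays and all 4 db/db arrays. No spot of any passenger probe was well above background on any array, 0 of 120 for each of the 2 probes of miR-143-5p and 0 of 56 or 64 for each of the 4 probes of miR-145a-3p. The brightest passenger probe, one for miR-143-5p, lay between 3.52 and 6.67, while the negative control spots averaged 4.94 to 7.40 per array. The passenger arms were therefore not tested, and their group means carry no direction or fold. A related entry on the array, mmu-miR-145b, was likewise undetected on all 8 arrays and at the floor on each.

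The guide arms were then compared with each other. On 1 array the scaling cancels in the log2 difference of miR-143-3p and miR-145a-5p, which is a signal ratio of unlike probes and no ratio of amounts. The difference was 2.43, 2.60, 2.51 and 2.58 on the control arrays and 2.50, 2.59, 2.52 and 2.58 on the db/db arrays, in order of replicate. Every db/db array fell within the control range. The means were 2.53 ± 0.08 and 2.55 ± 0.05 (SD, n = 4 arrays each), a difference of 0.02 (exact permutation test, 2-sided, p = 0.686, where 70 assignments allow no p below 0.0286). An unequal change of the 2 hairpins' guide arms was not detected. The difference turned to -0.013 without control replicate 1.

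Over the arrays the guide arms varied together. Pearson's r of their scaled log2 signals was 0.835 over the 8 arrays (permutation p = 0.00119, adjusted p = 0.00238 over 2 relations) and Spearman's rho was 0.874 (permutation p = 0.00794, adjusted p = 0.0159). The 2 arrays farthest from the median of scaled miR-145a-5p were control replicate 1 and db/db replicate 1. Without them, r was 0.860 (n = 6, exact permutation p = 0.0333) and rho 0.754 (n = 6, exact permutation p = 0.106). On unscaled signals r was 0.885 (permutation p = 0.00809). There the 2 farthest arrays were db/db replicate 1 and control replicate 4, so the reduced sets differ between the scales. Without these 2, the unscaled r was 0.390 (n = 6, exact permutation p = 0.436), so the unscaled relation rests on those arrays. The points share an array and, when scaled, a scaling factor that miR-143-3p sets on 2 of the arrays. Neither group alone has enough arrays for a correlation.

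As a measure of what 2 miRNAs share on these arrays, the median r of miR-143-3p with the other 268 miRNAs detected everywhere was 0.163, and 2 of them had a higher r than miR-145a-5p. For miR-145a-5p the median was 0.095, and 3 of them had a higher r than miR-143-3p. The deviations from the group means had the same sign on 5 of the 8 arrays. Where the signs differed, an arm lay close to its group mean. That arm was miR-145a-5p on control replicate 4 (-0.0011) and db/db replicate 2 (-4.1e-05), and miR-143-3p on control replicate 2 (0.0048).

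**Figure D4:**
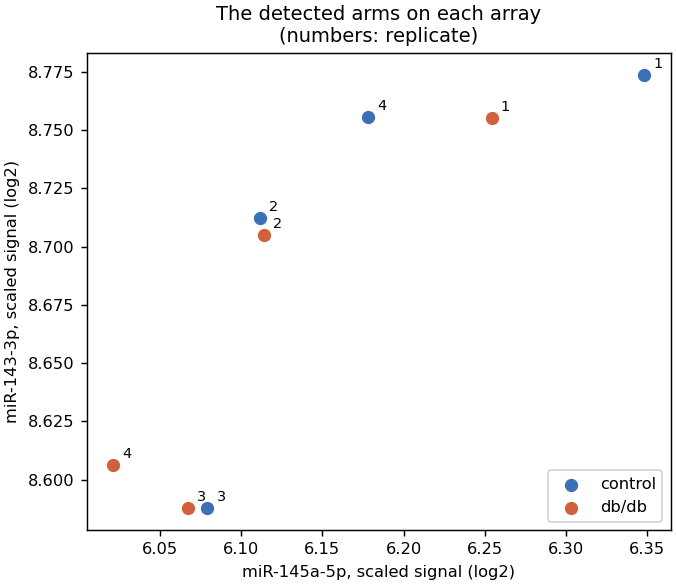
Each point is 1 array, numbered by replicate, with the log2 scaled signal of miR-145a-5p on the horizontal axis, that of miR-143-3p on the vertical axis, control in blue and db/db in orange. The points of both groups overlap along a rising band (r = 0.835, n = 8), with control replicate 1 at the upper right, at 6.35 and 8.77.

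By the root mean square distance between centred log2 profiles, the miRNAs nearest to miR-143-3p among the 268 were miR-181c-5p (0.039), miR-423-5p (0.043), miR-27a-3p (0.053), miR-145a-5p (0.057) and miR-677-3p (0.058), against a median distance of 0.137. The nearest to miR-145a-5p were miR-677-3p (0.047), miR-7011-5p (0.048), miR-143-3p (0.057), miR-181c-5p (0.057) and miR-652-5p (0.061), against a median of 0.153. The guide arms were thus the fourth and the third nearest to each other. None of the other 6 miRNAs passed the test between the groups, with changes from -0.11 to 0.05 (limma, lowest adjusted p = 0.278, for miR-181c-5p). When only the deviations from the group means were compared, miR-145a-5p ranked 21 from miR-143-3p and miR-143-3p ranked 7 from miR-145a-5p.

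Among 14 miRNAs with a described role in smooth muscle phenotype, 13 were on the array and 10 were tested. 3 rose, 1 fell and 6 did not pass, a share of called miRNAs near the 41.8% over all tested ones, so the count says nothing particular about the list. The median change was 0.11 beside -0.02 for all tested miRNAs. miR-146a-5p, which dampens NF-kB signalling, fell by 1.49 on the log2 scale (limma, adjusted p = 0.000137), with control arrays from 7.05 to 7.28 and db/db arrays from 5.41 to 5.93. miR-23b-3p, made in a cluster with miR-27b and miR-24, rose by 0.32 (adjusted p = 0.00032). miR-10a-5p, from the Hoxb locus, rose by 0.21 (adjusted p = 0.0197). miR-1a-3p, a miRNA of muscle that favours differentiation, rose by 0.37 (adjusted p = 0.0448), but this call held under 10 of 26 alternatives and the change was -0.0093 with normexp background correction. The call of miR-146a-5p held under all 26 alternatives, that of miR-23b-3p under 25 and that of miR-10a-5p under 15.

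The other 6 tested miRNAs of the list for smooth muscle phenotype gave changes that did not pass. They were 0.15 for miR-21a-5p, 0.08 for miR-221-3p and 0.04 for miR-222-3p. miR-130a-3p had 0.12 (limma, adjusted p = 0.0515), miR-24-3p 0.11 and miR-26a-5p 0.07. Among the 26 alternatives, 10 called miR-130a-3p higher, 7 miR-21a-5p, 7 miR-24-3p, 3 miR-221-3p, 1 miR-26a-5p and 0 miR-222-3p. Of the 6 markers of striated muscle, miR-133a-3p, miR-206-3p, miR-208a-3p and miR-499-5p were undetected on all arrays, miR-133b-3p was detected on 1 control and 3 db/db arrays, and miR-1a-3p alone was tested.

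Markers of other cells of the kidney moved on the same arrays. The lists of these markers were chosen with earlier results of these data known, and some entries are arms of the same miRNA. Their counts beside the share over all tested miRNAs are therefore descriptive. All 3 tested miRNAs listed for stroma and its Dnm3os transcript fell, where 17.4% of all tested miRNAs did. The falls were 0.42 for miR-199a-3p, 0.32 for miR-199a-5p and 0.44 for miR-214-3p, and miR-214-5p was undetected. Whether their signal came from that transcript alone was not tested. Their summed scaled signal was 943 to 1149 on control and 756 to 817 on db/db arrays. miR-199b-5p, related by name and not on this list, changed by -0.17 and did not pass (limma, adjusted p = 0.0962). The summed signal of the 4 arms of the miR-143/miR-145 cluster was 458 to 525 on control and 458 to 515 on db/db arrays. The stromal sums did not overlap between the groups and those of the cluster did. Lack of overlap was not particular to stroma. The endothelial, leukocyte and tubular sums did not overlap either, nor did those of the list for smooth muscle phenotype. The erythroid and striated muscle sums overlapped. In such whole-kidney RNA, fewer cells of a type and less RNA per cell cannot be told apart.

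All 4 leukocyte miRNAs, which include both arms of miR-142a, fell, where 17.4% of all tested miRNAs did. This list too was chosen with earlier results of these data known. The falls were 1.16 for miR-142a-3p, 1.43 for miR-142a-5p and 0.83 for miR-223-3p, which marks myeloid cells. miR-150-5p, which marks mature lymphocytes, fell by 1.39. It was detected on 4 control arrays but only 1 db/db array, so the size of its fall is uncertain. Its call held under all 25 alternatives that tested it, with changes from -4.61 to -0.25. The sum of the 4 was 445 to 599 on control and 191 to 283 on db/db arrays. The endothelial arms of Egfl7 did not pass, with -0.11 for miR-126a-3p (adjusted p = 0.0566) and -0.15 for miR-126a-5p (adjusted p = 0.0567), though 6 and 10 of the 26 alternatives called them lower. Their sum was 3913 to 4194 on control and 3648 to 3807 on db/db arrays, without overlap.

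Of the 5 tubular miRNAs, 3 rose, where 24.4% of all tested miRNAs did, miR-204-5p by 1.05, miR-30a-3p by 0.30 and miR-30a-5p by 0.17, while miR-192-5p (0.08) and miR-194-5p (-0.01) did not pass. The erythroid miR-451a varied far more within groups than the cluster did, at 10.29 ± 0.91 and 10.55 ± 1.05 (SD, n = 4 arrays each), and neither it nor miR-144-3p passed. The hepatocyte miR-122-5p was detected on 0 control and 4 db/db arrays. What part these markers have in the values of the cluster was not tested.

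**Figure D5:**
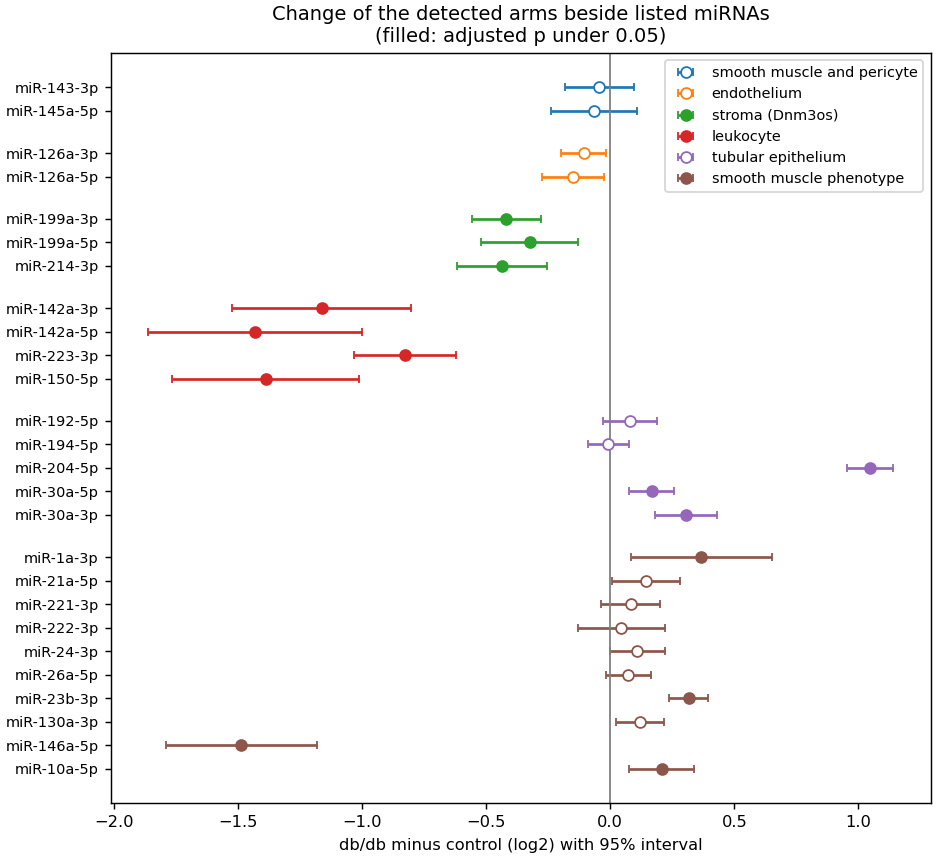
Points give the change from control to db/db kidneys (log2) with 95% intervals for the guide arms and the tested miRNAs of 5 lists, filled where the adjusted p was under 0.05. The intervals of miR-143-3p (-0.18 to 0.09) and miR-145a-5p (-0.24 to 0.11) span 0, and the stromal and leukocyte miRNAs lie to the left at -0.32 to -1.43.

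The difference between marker and guide arm was computed on each array, where the scaling cancels, for the 15 markers of these 5 cell types that every array detected. This set of 30 comparisons was chosen after the values were seen. The arrays of the groups did not overlap for 10 markers against miR-143-3p and for 9 against miR-145a-5p. The share over all tested miRNAs was not computed for such differences, and for the levels themselves it was 41.5%. The guide arms changed by only -0.04 and -0.06, so these differences mostly repeat the markers' own changes. miR-199a-3p fell against miR-143-3p by 0.37, from 0.92 ± 0.06 to 0.55 ± 0.10, and against miR-145a-5p by 0.35. The other Dnm3os and leukocyte markers detected on every array also fell against both guide arms, from 0.26 for miR-199a-5p against miR-145a-5p to 1.39 for miR-142a-5p against miR-143-3p. The tubular miR-204-5p rose against them by 1.09 and 1.11, miR-30a-3p by 0.35 and 0.37 and miR-30a-5p by 0.21 and 0.23. The endothelial miR-126a-5p fell by 0.11 against miR-143-3p without overlap, and differed by -0.08 from miR-145a-5p with overlap.

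Each difference without overlap had the smallest p the permutations can give (exact permutation test, 2-sided, p = 0.0286). Adjusted over the 30 it is 0.0451, and over 10 comparisons with the first marker of each list it is 0.0714, so the side of the threshold rests on how many markers are taken. The groups overlapped for miR-126a-3p (-0.06 and -0.04 against the guide arms), miR-451a (0.31 and 0.33), miR-144-3p (0.57 and 0.59), miR-192-5p (0.12 and 0.14) and miR-194-5p (0.04 and 0.06).

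Beyond genotype, the arrays differed in their place on the slide. All 8 lay on 1 slide from 1 scan, with the controls in row 1 and the db/db samples in row 2, so genotype and row of the slide cannot be told apart. Before scaling, the control arrays had a log2 75th percentile of 8.52 ± 0.11 and the db/db arrays of 8.65 ± 0.07 (SD, n = 4 arrays each), which gave p = 0.0857 in a 2-sided exact permutation test. The correlation of log2 signals between arrays of a group was 0.989 to 0.997 across miRNAs, which are not independent.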

How the data were processed

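Kidney RNA (100 ng per array, labelled with Cy3) of 4 control and 4 db/db samples was read on 8 arrays of 58594 spots each, all on 1 slide. Spot intensity values in the deposited scanner output came from Agilent Feature Extraction, version 12.0.3.1 (per the submitters' processing notes). The authors also deposited a table with a linear ratio per miRNA and array. Set against the scanner files, its log2 changes had a correlation of 1 with those of the gene total signal and an offset of -0.17, so higher means more signal. How its array factors were chosen, and thus its centring, stays unknown here. Column medians were 1.11, 1.10, 1.10 and 0.980 for control replicates 1 to 4 and 0.857, 1.01, 0.994 and 0.947 for db/db replicates 1 to 4. Each median equals the ratio of the blank row on that array, so the medians do not give the level of a typical detected miRNA. The rows of both passenger arms also hold on each array the same ratio as the blank row.

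The processed intensity was averaged over non-outlier spots, then over probes, scaled to the 75th percentile among 269 miRNAs that every array detected, raised to a floor of 2.80 (log2 1.48, the dimmest detected signal of each array, as a median) and put on the log2 scale. A miRNA was tested if either group had it detected on each of its 4 arrays, which left 316. Tests were 2-sided and used lmFit and eBayes of limma 3.58.1 (R 4.3.3, data.table version 1.17.8), Benjamini-Hochberg adjustment and a threshold of 0.05. Single values were tested by exact permutation over 70 assignments. The number of arrays limits the precision. The limma fit was tested on simulated log2 values with independent noise for each miRNA. The averaging, scaling, floor, detection filter, permutation tests and correlations were not part of that simulation.

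The miRNAs named are the arms of the cluster, other entries named miR-143 or miR-145, a list for smooth muscle phenotype, cell type markers, and the 5 nearest profiles of each tested arm. The members and lists were chosen with earlier results of these data known. 3 further scalings (without the cluster's arms, 50th and 90th percentile) and the differences between markers and guide arms were chosen after seeing the data. Replicate numbers do not pair the samples.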

Additional observations from a re-analysis of the deposited data

Results flagged for a closer look

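Among 74 groups of 4 arrays examined, over the arms of the cluster, the tested miRNAs named beside them and the difference between the guide arms, 2 held an array far from the others. Chance flags about 1 in 20 groups. miR-145a-3p had a log2 level of 1.87 on control replicate 2 and lay at the floor of 1.48 on the other control arrays. It was undetected on all of them, so this is a difference among values at background. Control replicate 2 also had the brightest negative control spots, with a mean scaled signal of 7.40. miR-652-5p, which is among the 5 profiles nearest to miR-145a-5p, had a log2 level of 7.68 on control replicate 1 and 7.35 to 7.40 on the other control arrays. The gap to the nearest array was 0.839 of the group's range, above the critical value of Dixon's test at 95% for 4 samples. Control replicate 1 is also the array with the highest level of miR-145a-5p, 6.35. No group of the guide arms passed that value.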

How the results depend on the processing

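Both guide arms stayed short of the threshold under all 26 alternatives. The change of miR-143-3p turned from -0.04 to 0.083 without scaling, 0.073 with the labelling spike-ins and 0.0077 with the 90th percentile, and that of miR-145a-5p from -0.06 to 0.062 and 0.052 with the first 2 of these. In each case the cause is the scaling factor, which moves all miRNAs alike. Leaving out 1 array at a time gave -0.12 to -0.02 for miR-143-3p, -0.12 to -0.0087 for miR-145a-5p, -0.013 to 0.045 for the difference between them (main value 0.02, reversed to -0.013 without control replicate 1) and 114 to 153 called miRNAs. The count of 132 called miRNAs fell to 34 with the 75th percentile over all 1881 miRNAs, of which only 390 were detected on any array. Under that scaling the standard error of the change was 0.247 for both guide arms, against 0.060 and 0.075 in the main setting. The cause of the lower count was not tested.

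The passenger arms have no spot well above background, so their differences between the groups are differences of background and floor, with no order and no meaning as changes. For miR-143-5p the difference was 0.11, and it was -0.094 with normexp, -0.28 with the median over probes, -0.28 with no floor above 0.1 and -0.10 to 0 with 1 array left out. For miR-145a-3p it was -0.10, and 0.72, 0.26 and -0.23 to 0.15 in the last 3 of these settings.

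With the replicate number as a block (replicate block) miR-143-3p changed by -0.04 (SE 0.040, limma adjusted p = 0.393), miR-145a-5p by -0.06 (SE 0.041, limma adjusted p = 0.245) and 144 miRNAs were called. Across all tested miRNAs, samples with the same number did not deviate together, with correlations of -0.43, 0.41, -0.05 and -0.07. The guide arms themselves did so in part. Deviations from the control and db/db means on replicate 1 were 0.07 and 0.09 for miR-143-3p and 0.17 and 0.14 for miR-145a-5p. On replicate 3 they were -0.12 and -0.08, and -0.10 and -0.05. On replicate 4 those of miR-143-3p went opposite ways, at 0.05 and -0.06.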
